A study of Arabidopsis thaliana with 17 samples.

Results

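RNA polymerase IV (Pol IV) supplies most 24 nt siRNAs of Arabidopsis thaliana, yet some clusters of these siRNAs keep a signal when its largest subunit, NRPD1, is missing. The clusters described here were chosen by their nrpd1-3 level: a cluster was kept where the mean of both nrpd1-3 libraries reached 0.5 RPKM (the number of 24 nt reads for each kilobase of cluster, relative to all filtered reads of its library). This rule kept 336 of 12939 clusters. Small RNAs of flowers were sequenced in 6 genotypes with 2 libraries each. The nrpd1-3 plants carry a T-DNA null allele of NRPD1. The clsy quad plants carry clsy1-7, clsy2-1, clsy3-1 and clsy4-1, mutant alleles of the 4 CLASSY genes. The 3 transgenic genotypes all carry nrpd1-3 together with a 3xFLAG-tagged NRPD1 driven by the NRPD1 promoter: NRPD1-3xF AAA-YPMF has the CYC residues of the CYC-YPMF motif changed to alanine, NRPD1-3xF CYC-AAAA has the YPMF residues changed to alanine, and NRPD1-3xF WT has the motif intact. For immunoprecipitation, the study selected herbicide-resistant T2 progeny of these genotypes that expressed the tagged protein strongly. Whether the sequenced plants were chosen in the same way is not given. Col-0 is the wild type. The table holds only siRNA clusters, so the tissue could not be checked against marker genes. The study describes the libraries of a genotype as biological replicates, and the p-values below measure the spread between them.

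In the usual route, CLASSY proteins bring Pol IV to chromatin, the RNA-dependent RNA polymerase RDR2 copies the Pol IV transcript into double-stranded RNA, and the Dicer-like enzyme DCL3 cuts that RNA into siRNAs of 24 nt, which direct methylation of matching DNA. A transcript that folds back on itself, such as a microRNA precursor or the transcript of a long inverted repeat, is double-stranded without RDR2 and can also be cut by Dicer-like enzymes. miR163 is the best known Arabidopsis microRNA of 24 nt, and DCL1 cuts it from a long foldback.

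The annotation and the genome sequence were not used by the rule. In 13 of the 336 clusters a microRNA gene held the start of the cluster or began within 100 bases after it, compared to 5 of the other 12603 clusters. The mature RNAs annotated at the 7 of these 13 clusters with the highest nrpd1-3 levels are shown because 6 of these 7 clusters are among those that rose in at least 1 mutant below; the capitals mark the seed, bases 2 to 8 from the 5′ end. They were read from the RefSeq reference TAIR10.1 at the annotated coordinates.
miR163 (chr1:24884359-24884382, plus strand): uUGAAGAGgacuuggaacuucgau
miR8121 (chr2:16588077-16588100, minus strand): aAAGUAUAaugguuuagugguuug
miR848 (chr5:4479448-4479469, minus strand): uGACAUGGgacugccuaagcua
miR1887 (chr4:11370301-11370321, plus strand): uACUAAGUagagucuaagaga
miR839-5p (chr1:25279138-25279158, minus strand): uACCAACCuuucaucguuccc
miR8178 (chr4:18087285-18087305, plus strand): uAACAGAGuaauuguacagug
miR869.1 (chr5:15891625-15891645, minus strand): aUUGGUUCaauucugguguug
miR869.2 (chr5:15891614-15891634, minus strand): uCUGGUGUugagauaguugac
The 15 mature RNAs annotated at the 13 clusters had 15 different seeds, so no seed was shared within this window. With a window of 500 bases, 27 mature RNAs had 23 different seeds, and miR5635a, miR5635b and miR5635d had the same one. Only 2 of the 15, miR163 and miR8121, are 24 nt long, the length of the reads counted in this table, and 11 are 21 nt long. Of all 428 annotated mature RNA loci, 11 are 24 nt long. The table gives no read sequences, so which RNAs were counted at each locus was not tested.

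Inverted repeats were searched in the 500 bases after each start (score of 1 per match, -2 per mismatch and -3 per gap base, with a minimum of 30). One was found in 51 of the 331 nuclear clusters with siRNAs left (15.4%) and in 114 of the other 12571 nuclear clusters (0.907%). The arms of 2 of them are printed here because both clusters rose in mutants, the left arm on the plus strand and the right arm as its reverse complement, with capitals where the paired arms differ. The first, merged_4_18087176, has the arms with the highest identity and holds the miR8178 sequence in both. The second, merged_5_22322586, starts where no gene is annotated.
merged_4_18087176 left arm (chr4:18087205-18087314): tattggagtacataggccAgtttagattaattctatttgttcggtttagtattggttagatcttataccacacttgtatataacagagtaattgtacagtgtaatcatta
merged_4_18087176 right arm (chr4:18087333-18087442): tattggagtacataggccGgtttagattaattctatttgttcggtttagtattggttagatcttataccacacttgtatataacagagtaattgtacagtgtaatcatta
merged_5_22322586 left arm (chr5:22322715-22322804): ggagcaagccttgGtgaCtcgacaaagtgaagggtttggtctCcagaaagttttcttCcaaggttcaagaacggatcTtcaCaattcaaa
merged_5_22322586 right arm (chr5:22322819-22322908): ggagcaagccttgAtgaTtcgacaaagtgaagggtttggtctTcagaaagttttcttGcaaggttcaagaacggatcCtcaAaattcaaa
The arms were 99.1% identical over 110 bases at merged_4_18087176 and 93.3% identical over 90 bases at merged_5_22322586. Over the 51 clusters the left arm had a median of 110 bases (43 to 226), the loop between the arms a median of 31 bases (1 to 196), and the identity a median of 89.2% (76.3% to 99.1%). The 51 are not all separate sequences. Arms of merged_3_8003363, merged_5_17346861 and merged_1_18547947 resemble one another closely. Arms of the same kind, some shorter, stood at merged_3_1923938, merged_5_16641848, merged_3_19242764, merged_5_18808713, merged_4_8718091, merged_5_4775988, merged_4_5456333, merged_4_1116328, merged_1_24553919 and merged_1_6905937. Arms of merged_5_16970561 and merged_5_6460804 also resemble each other, and like arms stood at merged_4_1023738, merged_1_4209167, merged_1_512587, merged_1_25613276 and merged_5_6925886. These groups may not be complete. Multi-mapping reads were shared among sites, and whether signal of one copy was counted at another was not tested.

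The 336 clusters spanned a wide range of levels. In nrpd1-3 the median was 0.845 RPKM, the lowest mean 0.5 RPKM and the highest 15696 RPKM. Of the 336, 205 lay below 1 RPKM, 65 between 1 and 2, 34 between 2 and 10, 22 between 10 and 100, and 10 above 100 RPKM. In 211 clusters both nrpd1-3 libraries reached 0.5 RPKM, and in 23 one of them was at 0. The 336 clusters held 96.7% and 96.8% of the RPKM summed over all clusters in the nrpd1-3 libraries, which the rule favoured. They held 94.6% and 92.9% of it in clsy quad, 83.6% and 80.4% in NRPD1-3xF AAA-YPMF, 94.1% and 94.3% in NRPD1-3xF CYC-AAAA, 6.5% and 6.71% in NRPD1-3xF WT, and 5.69% and 5.91% in Col-0. A single cluster, at MIR163, gave 66.3% to 71.9% of this signal in the 8 mutant libraries, 19.3% and 21.5% in NRPD1-3xF WT, and 23.1% and 24.2% in Col-0.

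**Figure D1:**
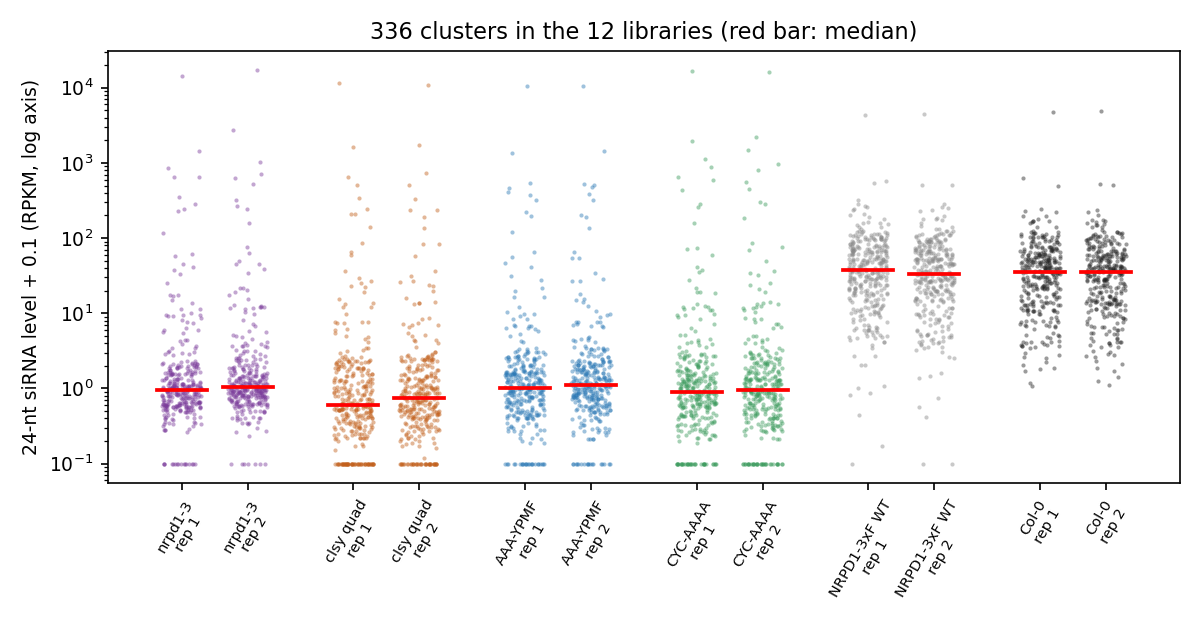
Level of each of the 336 clusters in the 12 libraries (RPKM + 0.1, log axis); each point is a cluster and the red bar is the median of the library. The medians lie between 0.51 and 1.01 RPKM in the 8 libraries of the 4 mutants and between 33.4 and 37.6 RPKM in the NRPD1-3xF WT and Col-0 libraries, while the MIR163 cluster lies between 4301 and 16969 RPKM in every library.

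Most of these clusters kept little of their signal in the 4 mutants. The median level as a percent of the Col-0 mean was 2.96% in nrpd1-3, which describes the rule and was not tested. It was 1.67% in clsy quad, 3.17% in NRPD1-3xF AAA-YPMF, 2.72% in NRPD1-3xF CYC-AAAA and 117% in NRPD1-3xF WT. In the other 12603 clusters the median was 0.245% in clsy quad, 1.55% in NRPD1-3xF AAA-YPMF and 0.579% in NRPD1-3xF CYC-AAAA. Computed per library, the median was 2.6% and 3.15% in nrpd1-3, 1.64% and 1.9% in clsy quad, 2.99% and 3.11% in NRPD1-3xF AAA-YPMF, and 2.61% and 2.69% in NRPD1-3xF CYC-AAAA. In nrpd1-3, 248 clusters kept 10% of Col-0 or less, 55 kept over 10% to 50%, 14 kept over 50% to 100%, and 19 lay above Col-0. The same 4 counts were 266, 40, 12 and 18 in clsy quad, 256, 54, 9 and 17 in NRPD1-3xF AAA-YPMF, and 257, 46, 11 and 22 in NRPD1-3xF CYC-AAAA. In NRPD1-3xF WT 234 clusters lay above Col-0 and 7 kept 10% or less.

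The RPKM are relative to all filtered reads of a library, and Col-0 libraries hold many more 24 nt reads than the mutants. When each library was rescaled to its filtered reads other than 24 nt, using the study's read numbers, the log2 fold change of a mutant against Col-0 moved by -0.82 to -0.83 in the median cluster. The median percent of Col-0 then was 1.67% in nrpd1-3, 0.944% in clsy quad, 1.8% in NRPD1-3xF AAA-YPMF and 1.55% in NRPD1-3xF CYC-AAAA.

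**Figure D2:**
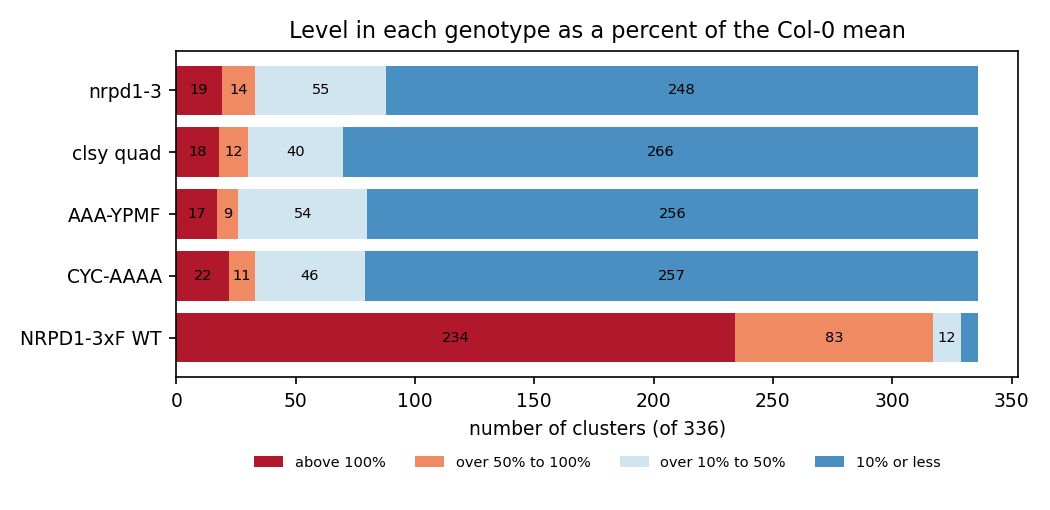
Number of the 336 clusters by their level in each genotype as a percent of the Col-0 mean. In each of the 4 mutants 248 to 266 clusters keep 10% or less and 17 to 22 lie above 100%. In NRPD1-3xF WT 234 lie above 100%, as do 9607 of the other 12603 clusters, which are not drawn.

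Many of the clusters with siRNAs left in nrpd1-3 also had siRNAs left in the other mutants. Of the 336 clusters, 180 also averaged at least 0.5 RPKM in clsy quad (53.6% of them, and 43.8% of the 411 clusters at that level in clsy quad). The same held for 254 in NRPD1-3xF AAA-YPMF (75.6%, and 12.6% of 2012) and for 223 in NRPD1-3xF CYC-AAAA (66.4%, and 35.7% of 625). All 3 mutants reached 0.5 RPKM at 153 of the 336 clusters (45.5%, and 79.7% of the 192 clusters where all 3 did). None of the 3 reached it at 51 of the 336 (15.2%), beside 10735 among all clusters. Over the 336 clusters, the log2(RPKM + 1) mean of nrpd1-3 had a Pearson r of 0.96 with that of clsy quad, 0.963 with NRPD1-3xF AAA-YPMF and 0.977 with NRPD1-3xF CYC-AAAA (Spearman 0.741, 0.617 and 0.722), and of 0.254 with Col-0 (Spearman 0.038). These correlations run across clusters of the same libraries and are a description.

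**Figure D3:**
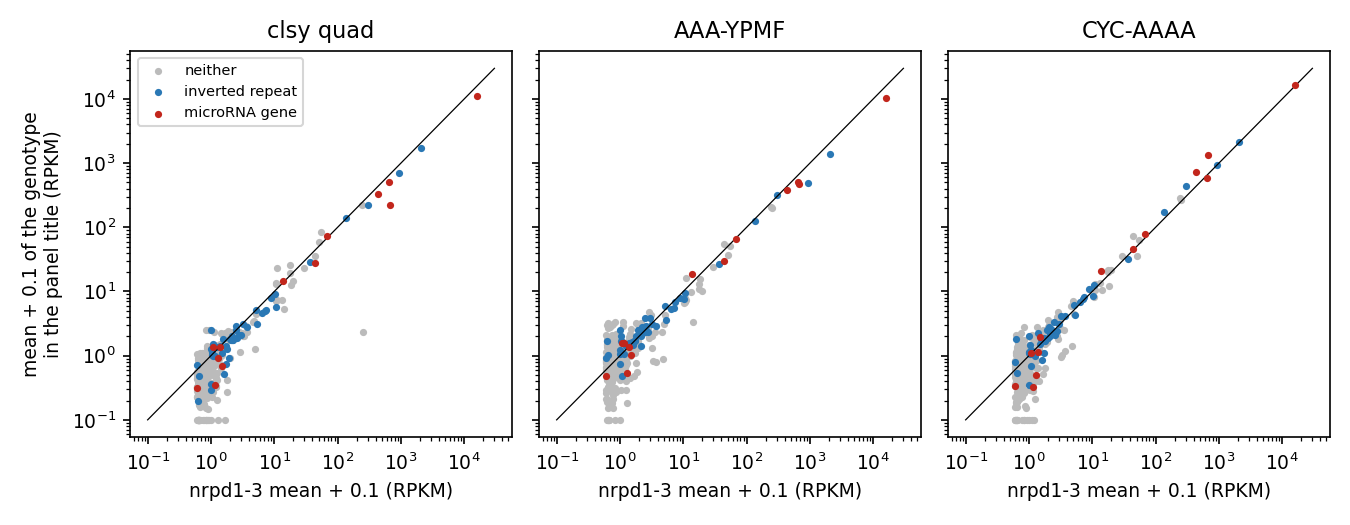
Mean level of the 336 clusters in clsy quad, NRPD1-3xF AAA-YPMF and NRPD1-3xF CYC-AAAA against their mean in nrpd1-3 (RPKM + 0.1, both axes log); the line marks equal levels and the colours mark clusters with a microRNA gene, with an inverted repeat, or with neither. Clusters of high level lie close to the line in all 3 panels, except for 1 cluster far below it in clsy quad, merged_3_16157970, at 2.21 RPKM.

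Each mutant other than nrpd1-3 was then tested against Col-0, with limma over all 12939 clusters (called at a 2-fold change and an adjusted p under 0.01). In clsy quad 302 of the 336 clusters fell (89.9%) and 11 rose. Among all clusters 97.9% fell and 0.085% rose. In NRPD1-3xF AAA-YPMF 302 fell and 11 rose, against a background of 97.3% that fell and 0.085% that rose. In NRPD1-3xF CYC-AAAA 298 fell and 14 rose, against 97.8% and 0.108%. The clusters that rose were all among the 336, and 294 of the 336 fell in all 3 mutants. The rest were 14 that rose in at least 1 mutant, 9 of them in all 3, and clusters called in only some mutants or in none (16 in none). The counts of falls in all 3 and of calls in none were taken over the 336 only. No share of all clusters stands beside them. On the log2(RPKM + 1) scale, the median log2 fold change over the 336 clusters was -4.25 in clsy quad, -3.95 in NRPD1-3xF AAA-YPMF and -4.05 in NRPD1-3xF CYC-AAAA. Over all clusters it was -3.52, -3.31 and -3.45. With 0.1 in place of 1 added to the RPKM, the order of the 336 and all clusters turned. The medians then were -5.54, -4.89 and -5.16 over the 336, beside -6.21, -5.25 and -5.84 over all clusters. The comparisons share the Col-0 libraries. With Col-0 replicate 1 or Col-0 replicate 2 left out, fewer falls and fewer rises were called among the 336 in each of the 3 mutants. In those fits the lone Col-0 library is assumed to vary like the mutant libraries. In each mutant, the share of clusters called dropped further among the 336 than among all clusters. The median log2 fold changes stayed between -3.92 and -4.29 over the 336 in those fits, and between -3.26 and -3.57 over all clusters. Rescaling to reads other than 24 nt left 2, 5 and 9 rises. Of the 36 rises over the 3 comparisons, 16 kept their call and 0 turned their direction.

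In 24 of the 336 clusters the mean of at least 1 mutant lay above Col-0, and in 14 all 4 mutants did. Both libraries lay above both Col-0 libraries in 19 clusters in nrpd1-3 (0.147% of all clusters), 18 in clsy quad (0.139%), 17 in NRPD1-3xF AAA-YPMF (0.131%) and 18 in NRPD1-3xF CYC-AAAA (0.139%), and none of these lay outside the 336. The rule used the nrpd1-3 libraries, so the count for nrpd1-3 is a description. Rescaled, 15 clusters lay above Col-0 in the mean of nrpd1-3, 11 in clsy quad, 14 in NRPD1-3xF AAA-YPMF and 18 in NRPD1-3xF CYC-AAAA, and 11 in all 4. Of the 24 clusters, 6 had a microRNA gene within 100 bases and 6 an inverted repeat, and 10 had either.

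**Figure D4:**
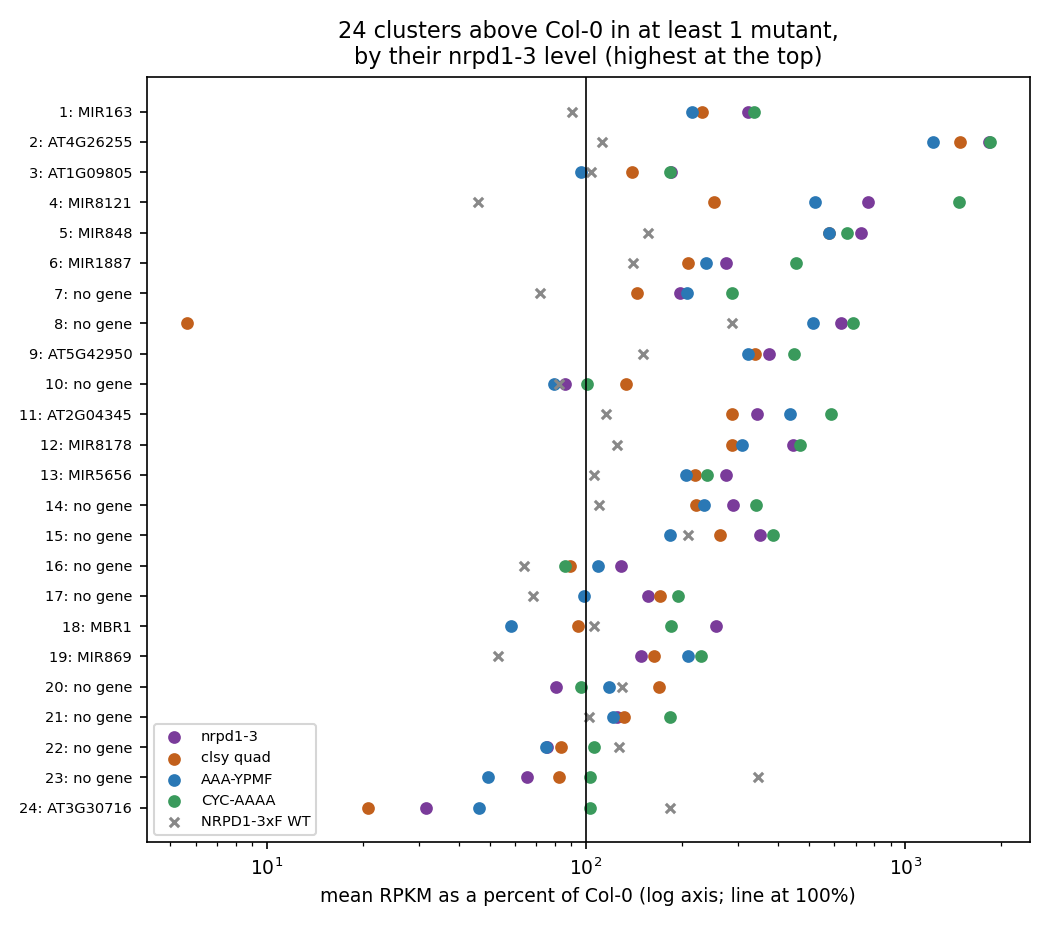
Mean level as a percent of Col-0 (log axis, line at 100%) for the 24 clusters above Col-0 in at least 1 of the 4 mutants, numbered from the highest nrpd1-3 level; circles are the mutants and crosses NRPD1-3xF WT. 14 clusters have all 4 mutants right of the line, cluster 2 (AT4G26255) lies between 1226% and 1838% in the mutants, and cluster 8 (merged_3_16157970) is at 5.63% in clsy quad and between 514% and 688% in the other 3.

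The MIR163 cluster (merged_1_24884060, chromosome 1, start at 24884060) had the highest level of the 336 in the mean of every genotype. It had 14422 and 16969 RPKM in nrpd1-3, 11616 and 10934 in clsy quad, 10633 and 10391 in NRPD1-3xF AAA-YPMF, 16510 and 16188 in NRPD1-3xF CYC-AAAA, 4301 and 4534 in NRPD1-3xF WT, and 4813 and 4956 in Col-0. All 8 mutant libraries lay above all 4 libraries of NRPD1-3xF WT and Col-0. The log2 fold change against Col-0 was 1.21 in clsy quad (SE 0.051, adjusted p = 2.77e-05), 1.11 in NRPD1-3xF AAA-YPMF (SE 0.033, adjusted p = 2.79e-06) and 1.74 in NRPD1-3xF CYC-AAAA (SE 0.028, adjusted p = 2.12e-06). These are 3 of the calls lost on rescaling, where the values were 0.38, 0.29 and 0.92.

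The MIR8121 cluster (merged_2_16588018) had a different level in each of the 4 mutants. It had 649 and 718 RPKM in nrpd1-3, 211 and 239 in clsy quad, 408 and 528 in NRPD1-3xF AAA-YPMF, 1134 and 1502 in NRPD1-3xF CYC-AAAA, 40.15 and 41.9 in NRPD1-3xF WT, and 87.1 and 91.7 in Col-0. It rose in all 3 tested mutants, by a log2 fold change of 1.32 (SE 0.12, adjusted p = 0.00048) in clsy quad, 2.36 (SE 0.15, adjusted p = 3.84e-05) in NRPD1-3xF AAA-YPMF and 3.85 (SE 0.15, adjusted p = 1.58e-05) in NRPD1-3xF CYC-AAAA. Rescaling ended the call in clsy quad (0.50) and kept the other 2. It fell in NRPD1-3xF WT, by 1.11 on the log2 scale (adjusted p = 3.39e-08), so that the transgenic line with the intact motif and the mutants moved in opposite directions at this locus.

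The MIR848 cluster (merged_5_4479376, which starts inside the protein-coding gene AT5G13890) had a like level in the 4 mutants. It had 646 and 639 RPKM in nrpd1-3, 509 and 511 in clsy quad, 538 and 484 in NRPD1-3xF AAA-YPMF, 600 and 556 in NRPD1-3xF CYC-AAAA, 118 and 156 in NRPD1-3xF WT, and 83.5 and 93.0 in Col-0. The log2 fold changes against Col-0 were 2.52, 2.52 and 2.7 in clsy quad, NRPD1-3xF AAA-YPMF and NRPD1-3xF CYC-AAAA (adjusted p of 3.09e-05, 8.92e-06 and 7.88e-06). It was 1 of the 2 clusters that rose in all 3 mutants after rescaling too.

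The MIR1887 and MIR8178 clusters also rose in all 3 tested mutants. The MIR1887 cluster (merged_4_11370268) had 353 and 524 RPKM in nrpd1-3, 341 and 326 in clsy quad, 377 and 384 in NRPD1-3xF AAA-YPMF, 640 and 815 in NRPD1-3xF CYC-AAAA, 208 and 238 in NRPD1-3xF WT, and 170 and 149 in Col-0. The MIR8178 cluster (merged_4_18087176), with the nearly perfect arms shown above, had 37.2 and 49.2 RPKM in nrpd1-3, 29.7 and 25.8 in clsy quad, 31.6 and 28.5 in NRPD1-3xF AAA-YPMF, 40.8 and 49.7 in NRPD1-3xF CYC-AAAA, 12.5 and 11.7 in NRPD1-3xF WT, and 10.9 and 8.52 in Col-0. At both loci the mutant libraries lay above those of Col-0 with no overlap. On rescaling both kept their call in NRPD1-3xF CYC-AAAA (1.36 at each) and lost it in clsy quad and NRPD1-3xF AAA-YPMF. The MIR869 cluster (merged_5_15891592) rose in NRPD1-3xF CYC-AAAA, where it had 21.6 and 19.3 RPKM against 8.83 and 9.07 in Col-0 (log2 fold change 1.11, adjusted p = 0.00021). Its log2 fold changes of 0.65 in clsy quad and 0.99 in NRPD1-3xF AAA-YPMF did not reach a 2-fold change. Rescaling ended the call in NRPD1-3xF CYC-AAAA (0.36) and turned the value of clsy quad to -0.11.

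The other 7 microRNA clusters fell in all 3 tested mutants. The MIR839 cluster (merged_1_25278928), with an inverted repeat of 133-base arms, kept the most: it had 61.3 and 75.8 RPKM in nrpd1-3, 64.4 and 82.5 in clsy quad, 66.0 and 65.5 in NRPD1-3xF AAA-YPMF, 73.8 and 85.5 in NRPD1-3xF CYC-AAAA, 79.2 and 97.6 in NRPD1-3xF WT, and 196 and 205 in Col-0. Here the NRPD1-3xF WT libraries lay near the mutants and fell against Col-0 too (log2 fold change -1.18, SE 0.099, adjusted p = 8.08e-09). MIR5641, MIR5027, MIR5014a, MIR5659, MIR776 and MIR5638a kept 0.432% to 12.3% of Col-0 in the 4 mutants. The 5 microRNA clusters below the limit, at MIR397a, MIR5628, MIR5660, MIR5662 and MIR8177, had 0 to 0.6 RPKM in the nrpd1-3 libraries.

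Among clusters without a microRNA gene, the one that rose furthest was merged_4_13295908, inside the non-coding RNA gene AT4G26255 on chromosome 4, with an inverted repeat of 94-base arms (82.1% identity). It had 1456 and 2730 RPKM in nrpd1-3, 1634 and 1748 in clsy quad, 1343 and 1455 in NRPD1-3xF AAA-YPMF, 1975 and 2221 in NRPD1-3xF CYC-AAAA, 130 and 125 in NRPD1-3xF WT, and 118 and 110 in Col-0. The means of the 4 mutants were 1226% to 1838% of Col-0. The log2 fold change was 3.88 in clsy quad (SE 0.098, adjusted p = 5.81e-06), 3.6 in NRPD1-3xF AAA-YPMF (SE 0.091, adjusted p = 2.09e-06) and 4.19 in NRPD1-3xF CYC-AAAA (SE 0.084, adjusted p = 2.64e-06), and the call held in all 3 after rescaling.

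3 more clusters rose in all 3 tested mutants. merged_5_17230109, inside the protein-coding gene AT5G42950, had 242 and 241 RPKM in nrpd1-3, 245 and 193 in clsy quad, 225 and 190 in NRPD1-3xF AAA-YPMF, 281 and 299 in NRPD1-3xF CYC-AAAA, 77.6 and 117 in NRPD1-3xF WT, and 62.1 and 67.1 in Col-0. merged_2_818861, inside the long non-coding RNA gene AT2G04345, had 41.2 and 45.2 RPKM in nrpd1-3, 36.0 and 36.5 in clsy quad, 55.9 and 54.5 in NRPD1-3xF AAA-YPMF, 72.2 and 75.9 in NRPD1-3xF CYC-AAAA, 14.9 and 14.4 in NRPD1-3xF WT, and 12.7 and 12.5 in Col-0. merged_4_1873241, which starts 383 bases before the protein-coding gene AT4G03940, kept 221% to 340% of Col-0 in the 4 mutants. On rescaling, merged_2_818861 kept its call in NRPD1-3xF AAA-YPMF (1.28) and NRPD1-3xF CYC-AAAA (1.69) but not in clsy quad (0.67). merged_5_17230109 kept it in NRPD1-3xF CYC-AAAA only (1.34), and merged_4_1873241 lost it in all 3. None of these 3 had an inverted repeat with a score of 30 or a microRNA gene within 100 bases.

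3 of the 14 clusters rose in 2 of the tested mutants and fell short in the third without falling. merged_5_22322586, the second inverted repeat shown above, had 286 and 324 RPKM in nrpd1-3, 211 and 237 in clsy quad, 325 and 318 in NRPD1-3xF AAA-YPMF, 438 and 444 in NRPD1-3xF CYC-AAAA, 108 and 113 in NRPD1-3xF WT, and 161 and 148 in Col-0. Its log2 fold change was 1.05 in NRPD1-3xF AAA-YPMF and 1.51 in NRPD1-3xF CYC-AAAA, both called, and 0.53 in clsy quad, not called. Rescaling ended both calls (0.24 and 0.69) and turned the value of clsy quad to -0.29. merged_1_1727121, in AT1G05780 with MIR5656 beginning 142 bases after its start, rose in clsy quad (1.07) and NRPD1-3xF CYC-AAAA (1.19), and had a log2 fold change of 0.99 in NRPD1-3xF AAA-YPMF. merged_3_11482734, which starts 24 bases after the non-coding RNA gene AT3G00580 ends, rose in clsy quad (1.25) and NRPD1-3xF CYC-AAAA (1.77), and had a log2 fold change of 0.77 in NRPD1-3xF AAA-YPMF. On rescaling, merged_1_1727121 lost both of its calls, and merged_3_11482734 kept the one in NRPD1-3xF CYC-AAAA (1.05) and lost the one in clsy quad (0.52).

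One cluster was called in opposite directions. merged_3_16157970 starts 435 bases before the protein-coding gene AT3G44570 on chromosome 3, within 3 Mb of the centromere, and has neither a microRNA gene nor an inverted repeat. It had 227 and 269 RPKM in nrpd1-3, 2.21 and 2.21 in clsy quad, 199 and 204 in NRPD1-3xF AAA-YPMF, 259 and 281 in NRPD1-3xF CYC-AAAA, 112 and 112 in NRPD1-3xF WT, and 39.7 and 38.7 in Col-0. Both clsy quad libraries lay far below Col-0, and the libraries of the other 4 genotypes all lay above it. The log2 fold change against Col-0 was -3.65 in clsy quad (SE 0.081, adjusted p = 4.32e-06), 2.33 in NRPD1-3xF AAA-YPMF (SE 0.1, adjusted p = 8.74e-06), 2.75 in NRPD1-3xF CYC-AAAA (SE 0.075, adjusted p = 5.2e-06) and 1.49 in NRPD1-3xF WT (SE 0.1, adjusted p = 2.52e-10). Rescaling kept the 3 calls in the mutants. The difference between clsy quad and the other mutants was not tested.

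2 clusters of high Col-0 level completed the 10 highest in nrpd1-3. merged_1_24720965, inside the non-coding RNA gene AT1G09805 with an inverted repeat of 149-base arms (92.6% identity), had 853 and 1012 RPKM in nrpd1-3, 659 and 741 in clsy quad, 464 and 506 in NRPD1-3xF AAA-YPMF, 879 and 964 in NRPD1-3xF CYC-AAAA, 540.0 and 508 in NRPD1-3xF WT, and 489 and 518 in Col-0. It was called in none of the 3 tested mutants. merged_3_17728477, in the long non-coding RNA gene AT3G07855 with arms of 186 and 183 bases (90.9% identity), had 116 and 159 RPKM in nrpd1-3, 141 and 138 in clsy quad, 119 and 135 in NRPD1-3xF AAA-YPMF, 160.05 and 183 in NRPD1-3xF CYC-AAAA, 573 and 515 in NRPD1-3xF WT, and 621 and 513 in Col-0. It fell in all 3 tested mutants and kept 22.4% to 30.3% of Col-0. With MIR163, these were the 3 clusters with the largest Col-0 mean among the 336.

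Clusters with an inverted repeat had a higher median percent of Col-0 than those without, and most of both kinds fell. The 51 with an inverted repeat had a median of 4.52% of Col-0 in clsy quad, 5.11% in NRPD1-3xF AAA-YPMF and 4.94% in NRPD1-3xF CYC-AAAA, and the 280 nuclear clusters without had 1.3%, 2.61% and 1.95%. In each of these 3 mutants 44 of the 51 fell, and 3, 3 and 5 rose. Of the 271 nuclear clusters with neither an inverted repeat nor a microRNA gene, 252, 252 and 248 fell, and 4, 4 and 5 rose. Among all clusters 97.9%, 97.3% and 97.8% fell. An inverted repeat was found in 46 of the 175 nuclear clusters that averaged at least 0.5 RPKM in clsy quad (26.3%) and in 5 of the 156 below it (3.21%). By the nrpd1-3 level, which the rule used, it was found in 11 of 203 clusters below 1 RPKM (5.42%), 13 of 62 between 1 and 2 RPKM (21%), 17 of 34 between 2 and 10 RPKM (50%), and 10 of 32 at 10 RPKM or more (31.2%). Examples of moderate level were merged_1_11128858 with 3.1% of Col-0 in clsy quad, merged_5_18136722 with 3.82% and merged_1_512587 with 13.3%, whose arms were 91.2%, 97.1% and 92.7% identical; they were picked after their values were seen.

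No difference between the motif variants passed the test at these clusters. Between NRPD1-3xF AAA-YPMF and NRPD1-3xF CYC-AAAA, limma called 0 of the 336 clusters lower and 0 higher, and 0% of all clusters in each direction. On the log2(RPKM + 1) scale a 2-fold change needs at least 1 RPKM in the higher variant. The medians of the 2 variants were 0.97 and 0.853 RPKM over the 336, and 0.17 and 0.07 RPKM over the other clusters. Many clusters could therefore not be called, and the 0 calls do not show equal levels. At an unadjusted p under 0.05, 46 of the 336 were lower and 41 higher, beside 147 lower and 2516 higher of all 12939 clusters, so that the near-even split of the 336 was not that of all clusters. The smallest adjusted p of the 336 was 0.0869. The median log2 fold change was 0.04 over the 336 clusters and 0.11 over all clusters. At MIR163 the log2 fold change was -0.64 (SE 0.03, adjusted p = 0.0869). With one fit over all 12 libraries, 1 of the 336 was lower and 2 were higher, while over all clusters 57 were called and 56 of these were higher. With clusters of a mean of at least 1 RPKM only, which left 322 clusters and 153 of the 336, 3 of the 153 were lower and 3 higher, while 48 of the 322 were called and 45 of these were higher.

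Few of the clusters were called between NRPD1-3xF WT and Col-0. Of the 336, 18 fell and 15 rose against Col-0, beside 7.76% and 5.46% of all clusters, and the median log2 fold change was 0.22 over the 336 and 0.35 over all clusters. The 5 largest changes were all falls. merged_3_9848096, in the pseudogene or transposon gene AT3G26775, was listed at 0 in both NRPD1-3xF WT libraries and had 177 and 172 RPKM in Col-0 (adjusted p = 8.89e-19). It had 0.49 and 0.79 RPKM in nrpd1-3, so the transgenic line with the intact motif was as low as the mutant here. merged_3_10777368 had 0.07 and 0 RPKM in NRPD1-3xF WT against 66.0 and 62.2 in Col-0, merged_3_20998984 had 0.73 and 0.47 against 76.9 and 86.3, merged_1_20525291 had 0.99 and 1.53 against 109 and 107, and merged_1_23509844 had 0.35 and 0.32 against 16.4 and 14.2. These 4 lie on chromosome arms. No gene is annotated at their starts or begins within 100 bases after them, but a protein-coding gene begins within 500 bases after each.

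The clusters with siRNAs left lay more on the chromosome arms than the others. Within 3 Mb of the approximate centromere lay 104 of the 336 (31%) and 7123 of the other 12603 (56.5%). On the rest of the arms lay 203 (60.4%) and 4936 (39.2%), and within 1 Mb of a chromosome end 24 (7.14%) and 512 (4.06%). Chromosomes 1 to 5 carried 74, 55, 68, 49 and 85 of them, and the mitochondrial genome 5. The nearest other cluster of the 336 was at a median distance of 93.2 kb, and 42 of the 331 nuclear clusters had one within 10 kb. No gene was annotated at the start of 235 of the 336 (69.9%) and of 9076 others (72%). A pseudogene or transposon gene stood at 13 (3.87%) and at 1912 others (15.2%), a protein-coding gene at 57 (17%) and 1397 (11.1%), and a non-coding RNA gene other than a microRNA, tRNA, snRNA or snoRNA at 14 (4.17%) and 177 (1.4%). The pseudogene or transposon gene with the highest nrpd1-3 level was AT3G29540, with 9.22 and 11.9 RPKM in nrpd1-3 against 17.0 and 15.1 in Col-0.

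The shares of inverted repeats also differed within classes of position and of Col-0 level. On the arms an inverted repeat was found in 36 of the 203 clusters (17.7%) and in 59 of 4936 others (1.2%), and near the centromere in 11 of 104 (10.6%) and in 49 of 7123 (0.688%). The Col-0 level of the 336 was higher than that of the others (medians of 35.8 and 11.1 RPKM), and 197 of the 336 lay among the 3235 clusters of all 12939 with the highest Col-0 level. Among these an inverted repeat was found in 37 of the 197 (18.8%) and in 45 of the 3038 others (1.48%). The GC content of the 500 bases was alike, with a median of 32% in the 336 and 32.4% in the others.

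**Figure D5:**
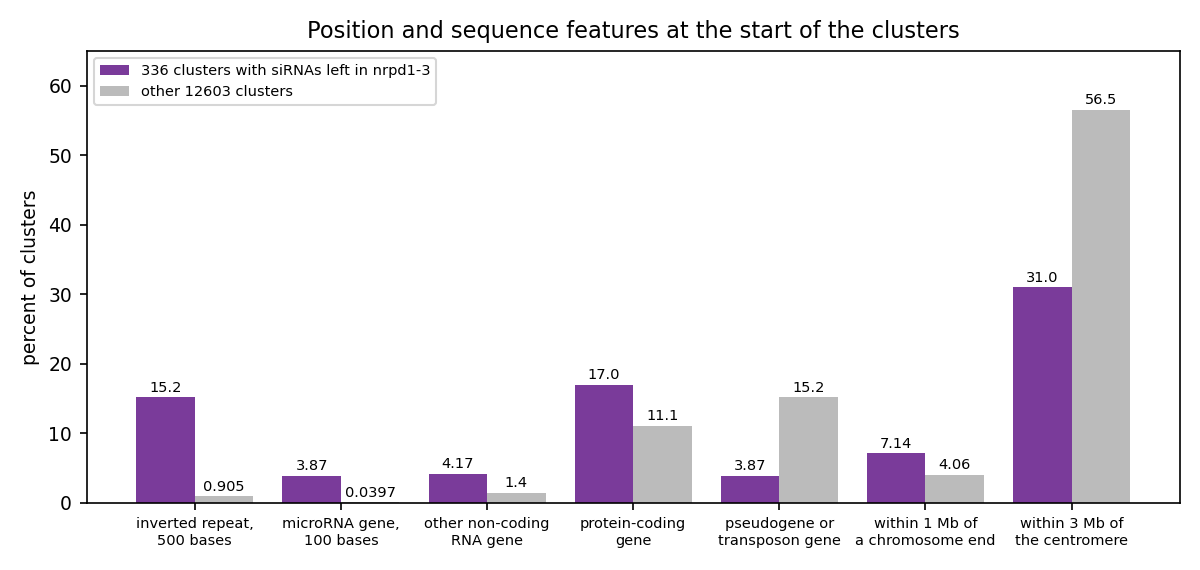
Percent of the 336 clusters and of the other 12603 clusters with each feature: an inverted repeat in the 500 bases after the start, a microRNA gene within 100 bases, the class of gene at the start, and the position on the chromosome. Inverted repeats (15.2% and 0.905%) and microRNA genes (3.87% and 0.0397%) are more frequent, and a position near the centromere (31% and 56.5%) is less frequent, among the 336.

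5 of the 37 mitochondrial clusters were among the 336 (13.5%). The one with the highest level, merged_Mt_37141, had 1.85 and 2.01 RPKM in nrpd1-3, 2.25 and 2 in clsy quad, 1.91 and 1.92 in NRPD1-3xF AAA-YPMF, 2.57 and 2.82 in NRPD1-3xF CYC-AAAA, 3.33 and 3.13 in NRPD1-3xF WT, and 2.49 and 2.61 in Col-0. Only 1 of the 5 fell in the 3 tested mutants, and the median over the 5 was 67.8% of Col-0 in clsy quad, 49.3% in NRPD1-3xF AAA-YPMF and 78% in NRPD1-3xF CYC-AAAA. The pericentromere of chromosome 2 carries a long insertion of mitochondrial DNA, and reads of the insertion and of the organelle cannot be told apart where the sequences match. Between 3.2 and 3.5 Mb of chromosome 2, a stretch chosen after its values were seen, 4 of 30 clusters were among the 336 (13.3%). One of them, merged_2_3303688 at the tRNA gene AT2G07754, had 0.99 and 0.91 RPKM in nrpd1-3 against 4.03 and 4.04 in Col-0. The 4 kept 21.6% to 171% of Col-0 in clsy quad, and 2 of them fell in all 3 tested mutants.

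At the limit of the rule, 8 clusters had an nrpd1-3 mean of exactly 0.5 RPKM and were kept, and 8 had 0.495 RPKM and were not. Of the 3 last clusters inside, merged_4_6900073 had 0.29 and 0.71 RPKM in nrpd1-3 against 18.8 and 17.9 in Col-0, merged_1_18033551 had 0.24 and 0.76 against 30.1 and 28.7, and merged_3_14065748 had 0.36 and 0.64 against 6.89 and 6.55. Of the 3 first outside, merged_5_10924733 had 0.38 and 0.61 against 4.06 and 4.57, merged_2_5917698 had 0.71 and 0.28 against 113 and 113, and merged_5_19659834 had 0.29 and 0.7 against 47.7 and 36.0. The nrpd1-3 values on either side of the limit overlapped.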

How the data were processed

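Small RNA libraries of Arabidopsis flowers were analysed from 6 genotypes with 2 libraries each; 5 flower bud samples were not analysed here. Per the labels and the study's methods, the authors trimmed reads with cutadapt, removed reads under 15 nt, aligned with ShortStack to TAIR10 allowing 1 mismatch with multi-mapping reads shared among sites, and built tag directories from 24 nt reads with HOMER 4.10. The deposited values are RPKM with 2 decimals over 12939 published clusters, scaled to the filtered reads of all lengths. The library kit had molecular identifiers; whether they were used is not given in the sources used here. The read numbers behind each RPKM are unknown, so no counting intervals are given. The table holds no unused sample columns.

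The members and gene lists were chosen with earlier results of these data known. Clusters with an nrpd1-3 mean of at least 0.5 RPKM were kept, so nrpd1-3 against Col-0 is described without a test. Other comparisons used limma 3.58.1 in R 4.3.3 on log2(RPKM + 1) over all clusters, with Benjamini-Hochberg adjustment, a 2-fold limit and an adjusted p under 0.01; fold changes on this scale understate changes of low clusters. The fit was tested on simulated data. The named clusters are the 10 with the highest nrpd1-3 mean, those called higher in a mutant, those at microRNA genes, the highest of each annotation class, the 3 on each side of the limit, the 3 with the largest Col-0 mean and the 5 largest changes in NRPD1-3xF WT. Those named only as values that differ between mutants or as examples were chosen after their values were seen. Cluster starts were set against the RefSeq annotation of TAIR10.1; mitochondrial clusters were not annotated, and cluster ends are not in the table. Python 3.11.15, numpy 2.4.6, pandas 2.3.3, numba 0.67.0, Biopython 1.88 and matplotlib 3.10.9 were used.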

Additional observations from a re-analysis of the deposited data

Results flagged for a closer look

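In 4 of the 336 clusters both libraries of a mutant lay above both Col-0 libraries and both libraries of another lay below them. Outside the 336, no cluster had both libraries of a mutant above both Col-0 libraries, so these 4 are all among the 12939. With 2 libraries per genotype and nrpd1-3 among the genotypes compared, the count is a description. None of these differences between mutants was tested. They are given as differences of log2(mean RPKM + 1), the lower mutant minus the higher one. At merged_3_16157970, clsy quad was lower than nrpd1-3 (-6.28), NRPD1-3xF AAA-YPMF (-5.98) and NRPD1-3xF CYC-AAAA (-6.4). At merged_5_16715937, NRPD1-3xF AAA-YPMF was lower than clsy quad (-0.75). At merged_4_11359595, clsy quad was lower than nrpd1-3 (-0.502) and NRPD1-3xF AAA-YPMF (-0.279), and NRPD1-3xF CYC-AAAA was lower than nrpd1-3 (-0.551) and NRPD1-3xF AAA-YPMF (-0.327). At merged_1_10982103, nrpd1-3 was lower than clsy quad (-1.01) and NRPD1-3xF AAA-YPMF (-0.505). The nrpd1-3 values chose the clusters.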

How the results depend on the processing

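Rescaling to reads other than 24 nt left 2 rises in clsy quad, 5 in NRPD1-3xF AAA-YPMF and 9 in NRPD1-3xF CYC-AAAA, 11 clusters above Col-0 in clsy quad, and median percents of Col-0 of 1.67 in nrpd1-3, 0.944 in clsy quad, 1.8 in NRPD1-3xF AAA-YPMF and 1.55 in NRPD1-3xF CYC-AAAA. In the same order, the medians were 5.35, 3.32, 4.75 and 4.94 over the 211 clusters at the limit in both nrpd1-3 libraries, and 9.87, 5.88, 6.91 and 8.24 over the 131 with a mean of at least 1 RPKM. With NRPD1-3xF WT as the reference they were 2.93 in NRPD1-3xF AAA-YPMF and 2.44 in NRPD1-3xF CYC-AAAA. A window of 500 bases gave 24 of the 336 clusters with a microRNA gene (7.14%) and 24 of the others (0.19%). One of 1000 bases gave 86 of the 336 with an inverted repeat (25.6%) and 337 of the others (2.67%). Between NRPD1-3xF AAA-YPMF and NRPD1-3xF CYC-AAAA, a minimum mean of 1 RPKM gave 3 lower and 3 higher of 153 (45 of 48 calls higher among all 322 clusters left), and one fit over all libraries 1 lower and 2 higher of 336 (56 of 57 calls higher among all 12939). The cause was not tested.

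With 1 replicate left out at a time, falls numbered 159 to 302 and rises 2 to 11 in clsy quad, 195 to 304 and 6 to 12 in NRPD1-3xF AAA-YPMF, 138 to 300.0 and 7 to 15 in NRPD1-3xF CYC-AAAA, and 18 to 22 and 12 to 19 in NRPD1-3xF WT, with 0 of either between the motif variants. In the 3 tested mutants the fewest falls were called without a Col-0 replicate. Clusters above Col-0 numbered 19 to 21 in nrpd1-3, 18 to 20 in clsy quad, 17 to 19 in NRPD1-3xF AAA-YPMF and 19 to 25 in NRPD1-3xF CYC-AAAA, and the median percents were 2.6 to 3.21, 1.64 to 1.9, 2.99 to 3.28 and 2.61 to 2.73. The log2 fold change against Col-0 changed sign in clsy quad at merged_5_15891592 (-0.11), merged_5_22322586 (-0.29), merged_5_16715937 (-0.39) and merged_1_10982103 (-0.06) on rescaling, and at merged_4_11359595 (0.44) against NRPD1-3xF WT. It did so in NRPD1-3xF AAA-YPMF at merged_4_11359595 (-0.66) and merged_1_10982103 (-0.56) on rescaling, and at merged_3_11482734 (-0.17) and merged_1_10982103 (-0.14) against NRPD1-3xF WT. In NRPD1-3xF CYC-AAAA it did so at merged_5_16715937 on rescaling (-0.80), and with a replicate left out (-0.12 to 0.14, with -0.10 without NRPD1-3xF CYC-AAAA replicate 2), at merged_4_11359595 (0.39) against NRPD1-3xF WT, and at merged_1_10982103 with a replicate left out (-0.16 to 0.07).

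With a replicate block, 303 clusters fell and 11 rose in clsy quad, 303 and 11 in NRPD1-3xF AAA-YPMF, 298 and 14 in NRPD1-3xF CYC-AAAA, and 18 and 15 in NRPD1-3xF WT. The labels do not say whether same-numbered libraries were grown or prepared together. Over the 336 clusters their deviations correlated between -0.0497 and 0.0967. Most of these clusters have low levels in the mutants, so the correlations cannot show whether a batch was shared.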
